A study of Homo sapiens with 6 samples.

Results

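The mitochondrial calcium genes examined here are the 9 genes MCU, MCUB, MICU2, SMDT1, MCUR1, VDAC1, VDAC2, LETM1 and SLC8B1, chosen by name as the uniporter complex, outer membrane channels and inner membrane exchangers, of 58884 gene identifiers in the count matrix. They were measured in cells of SW480, a long-established line from a human colorectal cancer, grown as liver metastases in NSG mice, an immunodeficient strain, after injection into the portal circulation. sgITPR3 cells carried a guide RNA against ITPR3, with loss of the protein checked by Western blot per the labels, and sgCtrl cells carried a control guide. Each group had 3 libraries, made as tags from the 3' ends of polyadenylated RNA of tumour cells recovered from dissociated livers. The labels do not give the guide sequence, the time of harvest, the age of the mice, whether the cells were a clone, or whether libraries stand for separate animals. The p-values therefore speak only to the scatter among these 6 libraries.

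Calcium released from the endoplasmic reticulum through inositol trisphosphate receptors, of which ITPR3 encodes 1, reaches mitochondria at sites where the membranes lie close together. It crosses the outer membrane through voltage-dependent anion channels and the inner membrane through the uniporter, a pore formed by MCU and held closed at resting calcium by MICU proteins. Exchangers return calcium to the cytosol, and calcium in the matrix stimulates dehydrogenases that feed the respiratory chain, while overload opens a permeability pore linked to cell death.

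The libraries held 19140055 to 23943797 counts. Levels below are in CPM, the count of a gene scaled to library size and composition, and a gene passed at an adjusted p under 0.05 in edgeR's quasi-likelihood test over all 15804 genes tested. ITPR3 had 39.4, 41.0 and 46.2 CPM in the sgITPR3 libraries, against 107.5, 93.9 and 94.2 CPM in the sgCtrl libraries (log2 fold change -1.22, SE 0.083, edgeR adjusted p = 1.28e-07). Tags come from transcript ends, which the edit may not reach, and this level does not measure the protein that was left. Colorectal epithelial markers of the labelled line summed to between 1715 and 1777 CPM in sgITPR3 and between 1867 and 2199 CPM in sgCtrl, with KRT20 and CDX1 under 1 CPM on average. Within this list EPCAM and KRT8 fell while CDX2 and VIL1 rose, VIL1 to 36.7 ± 1.19 CPM in sgITPR3, against 3.18 ± 0.821 CPM in sgCtrl (edgeR adjusted p = 1.30e-09). Hepatocyte markers summed to between 167 and 322 CPM in sgITPR3, against 69.7 to 269 CPM in sgCtrl, with all 9 detected and APOA2, TF and HP under 1 CPM on average. ALB was at 231.6, 152.6 and 111.5 CPM in sgITPR3 and 33.8, 169.7 and 21.6 CPM in sgCtrl replicates 1 to 3. SERPINA1 went against the other 6 tested markers of the list and fell to 13.9 ± 2.17 CPM in sgITPR3, against 43.3 ± 3.86 CPM in sgCtrl (log2 fold change -1.64, edgeR adjusted p = 1.51e-07). Erythroid markers summed to between 4.84 and 6.39 CPM in sgITPR3 and between 0.587 and 1.34 CPM in sgCtrl. Most of this was HBA2 (4.40 ± 0.833 CPM in sgITPR3, 0.759 ± 0.260 CPM in sgCtrl), with HBB, HBA1 and ALAS2 under 1 CPM on average. Stellate or fibroblast markers summed to between 8.66 and 10.7 CPM in sgITPR3 and between 6.14 and 6.51 CPM in sgCtrl. Most of this was COL1A1 (7.82 ± 0.885 CPM in sgITPR3, 5.61 ± 0.173 CPM in sgCtrl), with COL1A2, COL3A1, DCN, LRAT and PDGFRB under 1 CPM on average. Macrophage markers (0.526 to 0.979 CPM in sgITPR3, 0.320 to 1.19 CPM in sgCtrl) and endothelial markers (0.324 to 0.722 CPM in sgITPR3, 0.696 to 1.77 CPM in sgCtrl) each averaged under 1 CPM per gene. In such mixed samples, fewer cells of a type and less RNA per cell cannot be told apart. The host liver was of mouse, these are counts of human genes, and the handling of mouse reads is not stated. These sums therefore do not measure how many host cells were present, and low sums do not show that such cells were absent.

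All 9 genes passed the low-count filter. SLC8B1, VDAC2 and MCUB fell in sgITPR3, by 32.9%, 24.7% and 18.3%, and no member rose. MCU itself, VDAC1, LETM1 and MCUR1 did not pass the test, and MICU2 and SMDT1 lay just outside the threshold. The 3 members called lower are 33.3% of the 9, while over all genes 11.9% were called lower and 23.5% were called in either direction, so at 9 genes the count says little about the group as a whole. The median log2 fold change of the members was -0.26, against 0.00086 over all genes tested. CPM ranges of the groups did not overlap for 4 members that were lower in sgITPR3 and for 1 that was higher, where 19.7% and 19.6% of all genes had ranges apart in these directions (39.3% in either).

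**Figure D1:**
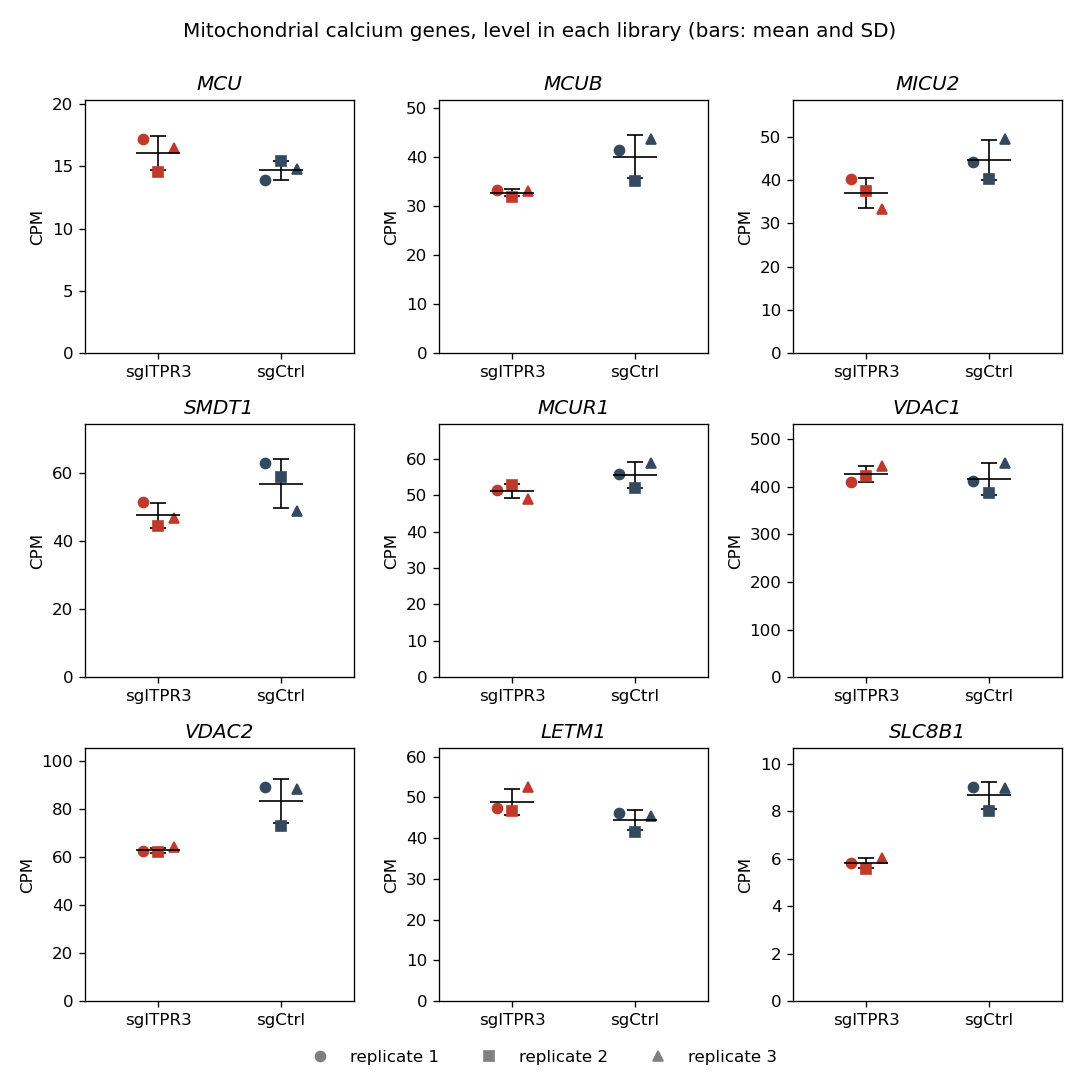
CPM of each of the 9 genes (vertical axes, from 0) in the 3 sgITPR3 and the 3 sgCtrl libraries, with symbols for replicates and bars for the mean and SD. The ranges of SLC8B1, VDAC2, MCUB and MICU2 lie lower in sgITPR3 without overlap, that of LETM1 lies higher, and those of the other 4 genes overlap.

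A 3' tag library yields about 1 tag per transcript whatever its length, so CPM was used to order the members. VDAC1 was by far the most abundant, at 426 ± 16.9 CPM in sgITPR3 and 416 ± 32.6 CPM in sgCtrl (SD, n = 3 each), which is position 259 among the tested genes by mean level. VDAC2 came next and its range stood apart from those of its neighbours in both groups. Below it lay MCUR1, LETM1, SMDT1, MICU2 and MCUB. Within this set the ranges of MCUR1 and LETM1 overlapped in sgITPR3, as did those of LETM1 and SMDT1, and in sgCtrl the overlapping neighbours were SMDT1 and MCUR1, MICU2 and LETM1, and LETM1 and MCUB. MCU was lower than every partner gene of the uniporter, at position 7683, and SLC8B1 was the least abundant member, at position 9797.

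The uniporter pore and its paralog came first. MCU (ENSG00000156026, GRCh38 chromosome 10, 72692131 to 72887694, plus strand) encodes the pore subunit. Its level was 17.2, 14.5 and 16.4 CPM in the sgITPR3 libraries and 13.9, 15.4 and 14.8 CPM in the sgCtrl libraries. The groups overlapped, and the log2 fold change of 0.13 (SE 0.109, 95% interval -0.11 to 0.36) did not pass (edgeR adjusted p = 0.438). The interval leaves room for a rise or a small fall, so these libraries do not show that the pore gene was unaltered. By Pearson correlation of log2 CPM over the 6 libraries, genes with profiles much like that of MCU among the 10631 genes that averaged 5 CPM or more included CORO2A (r = 0.987, the highest) and MNX1-AS1 (r = 0.973), which share the libraries and their scaling with it. Neither passed the test (edgeR adjusted p = 0.316 and 0.716). Whether these r values exceed the highest that unrelated genes would reach over 6 libraries was not tested.

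MCUB (ENSG00000005059, chromosome 4, 109560205 to 109688726, plus strand) encodes a paralog of the pore that enters the channel and lowers its conductance. It was measured at 33.3, 31.9 and 33.1 CPM in the sgITPR3 libraries, against 41.4, 35.2 and 43.8 CPM in the sgCtrl libraries. The sgITPR3 libraries lay within a narrow band below every sgCtrl library, and sgCtrl replicate 2 was the closest to them. The log2 fold change was -0.29 (SE 0.091, edgeR adjusted p = 0.0308). This call ended in 5 of the 6 fits that left out 1 library (adjusted p of 0.0786 without sgCtrl replicate 1, 0.127 without sgCtrl replicate 3, and 0.0737, 0.115 and 0.0679 without sgITPR3 replicates 1, 2 and 3 by edgeR) and when ALB level was a covariate (log2 fold change -0.13, edgeR adjusted p = 0.496). At its 3' end MCUB shares 105 exon bases with CASP6, a caspase gene on the opposite strand, and the sources used here do not say whether counting used strand. CASP6 averaged 13.6 ± 2.10 CPM in sgITPR3 and 12.7 ± 0.965 CPM in sgCtrl (log2 fold change 0.10, edgeR adjusted p = 0.608).

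Among the regulators of the pore, MICU2 (ENSG00000165487, chromosome 13, 21492691 to 21604214, minus strand) encodes a calcium-binding gatekeeper. It had 40.1, 37.4 and 33.4 CPM in the sgITPR3 libraries and 44.2, 40.3 and 49.5 CPM in the sgCtrl libraries. The ranges touched without crossing, since sgITPR3 replicate 1 and sgCtrl replicate 2 were almost level. Its log2 fold change of -0.27 (SE 0.095, 95% interval -0.47 to -0.067) missed the threshold narrowly (edgeR adjusted p = 0.0530). Of the 6 fits that left out 1 library, MICU2 passed in 1, without sgCtrl replicate 2 (log2 fold change -0.34, edgeR adjusted p = 0.0134). Its adjusted p was highest without sgCtrl replicate 3 (-0.19, edgeR adjusted p = 0.206). With ALB level as a covariate it did not pass (-0.17, edgeR adjusted p = 0.410).

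SMDT1 (ENSG00000183172, chromosome 22, 42079691 to 42084284, plus strand) encodes EMRE, the small protein that ties MICU proteins to the pore and is needed for transport in animals. It was at 51.7, 44.5 and 46.8 CPM in the sgITPR3 libraries and 63.2, 58.8 and 49.0 CPM in the sgCtrl libraries. Here sgCtrl replicate 3 fell inside the sgITPR3 range and the other sgCtrl libraries lay above it. Its log2 fold change was -0.26 (SE 0.095, 95% interval -0.46 to -0.054, edgeR adjusted p = 0.0645). Of the 6 fits that left out 1 library, SMDT1 passed in 1, without sgCtrl replicate 3 (-0.36, edgeR adjusted p = 0.0133). The adjusted p of these fits reached 0.225 by edgeR. With ALB level as a covariate it did not pass (-0.36, edgeR adjusted p = 0.0532).

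MCUR1 (ENSG00000050393, chromosome 6, 13786557 to 13814568, minus strand) encodes an assembly factor of the complex. It had 51.3, 52.9 and 49.0 CPM in the sgITPR3 libraries and 55.7, 51.9 and 58.9 CPM in the sgCtrl libraries. sgCtrl replicate 2 lay within the sgITPR3 range, and the log2 fold change of -0.12 (SE 0.075, 95% interval -0.28 to 0.042) did not pass (edgeR adjusted p = 0.280).

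The outer membrane channels differed from each other. VDAC2 (ENSG00000165637, chromosome 10, 75210154 to 75231448, plus strand) encodes a channel that also binds the death effector BAK. Its level was 62.4, 61.8 and 64.0 CPM in the sgITPR3 libraries, against 89.2, 72.8 and 88.1 CPM in the sgCtrl libraries. Every sgITPR3 library lay below every sgCtrl library, with sgCtrl replicate 2 again the lowest of its group. Its fall was 1.33-fold (log2 fold change -0.41, SE 0.082, 95% interval -0.59 to -0.23, edgeR adjusted p = 0.00233). It passed in all 6 fits without 1 library, but not once ALB level was a covariate (log2 fold change -0.25, edgeR adjusted p = 0.0865).

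VDAC1 (ENSG00000213585, chromosome 5, 133971915 to 134005133, minus strand), encoding the main channel isoform of most cells, had 411, 423 and 444 CPM in the sgITPR3 libraries and 412, 386 and 450.5 CPM in the sgCtrl libraries. These ranges lay over each other. Its log2 fold change was 0.034 (SE 0.072, 95% interval -0.12 to 0.19, edgeR adjusted p = 0.780), and without sgCtrl replicate 2 it was -0.022. Processed copies of these genes can take reads. The 13 pseudogenes named after VDAC1 held 63 counts over all libraries, or 0.12% of its own, and the 5 named after VDAC2 held 4 counts. Within libraries the ratio of VDAC1 to VDAC2 counts was 6.58, 6.84 and 6.94 in sgITPR3, against 4.62, 5.30 and 5.11 in sgCtrl. The ratio was higher in every sgITPR3 library (difference of mean log2 ratios 0.44, SE 0.064, exact two-sided permutation p = 0.1, the smallest that 3 against 3 libraries can give, and 0.12 when adjusted over the 6 ratios tested). It is made of the same counts as the fold changes of both genes, so it restates the fall of VDAC2 and is not separate evidence.

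SLC8B1 (ENSG00000089060, chromosome 12, 113298759 to 113359493, minus strand) encodes NCLX, described as the sodium/calcium exchanger of the inner membrane. It had 5.83, 5.58 and 6.03 CPM in the sgITPR3 libraries, against 9.04, 8.005 and 8.97 CPM in the sgCtrl libraries, from 117 to 168 counts per library. The groups were well apart. Its fall was 1.49-fold, the largest of the members that passed (log2 fold change -0.58, SE 0.142, 95% interval -0.88 to -0.27, edgeR adjusted p = 0.00911). The gene passed in all 6 fits without 1 library, but not once ALB level was a covariate (log2 fold change -0.48, edgeR adjusted p = 0.121). Its 3' end faces that of TPCN1, an endolysosomal channel gene, across 0.174 kb. TPCN1 averaged 20.8 ± 1.86 CPM in sgITPR3 and 24.5 ± 1.38 CPM in sgCtrl (log2 fold change -0.24, edgeR adjusted p = 0.0931). PLBD2 overlaps SLC8B1 on the other strand with 0 shared exon bases, at 22.4 ± 0.437 CPM in sgITPR3 and 22.9 ± 1.38 CPM in sgCtrl.

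LETM1 (ENSG00000168924, chromosome 4, 1811479 to 1856247, minus strand) encodes an inner membrane protein described as a proton exchanger for calcium or potassium. It was at 47.3, 46.7 and 52.6 CPM in the sgITPR3 libraries and 46.3, 41.6 and 45.4 CPM in the sgCtrl libraries. Its ranges were apart, by less than the spread within either group, and the log2 fold change of 0.14 (SE 0.080, 95% interval -0.034 to 0.31) did not pass (edgeR adjusted p = 0.241). The ratio of SLC8B1 to LETM1 counts was 0.124, 0.120 and 0.115 in sgITPR3 and 0.196, 0.193 and 0.198 in sgCtrl. All sgITPR3 libraries lay below all sgCtrl libraries, and the SE was the smallest of the 6 ratios (difference of mean log2 ratios -0.71, SE 0.032, exact two-sided permutation p = 0.1, adjusted p = 0.12). This ratio too is made of the same counts as the fold changes of both genes and is not separate evidence.

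**Figure D2:**
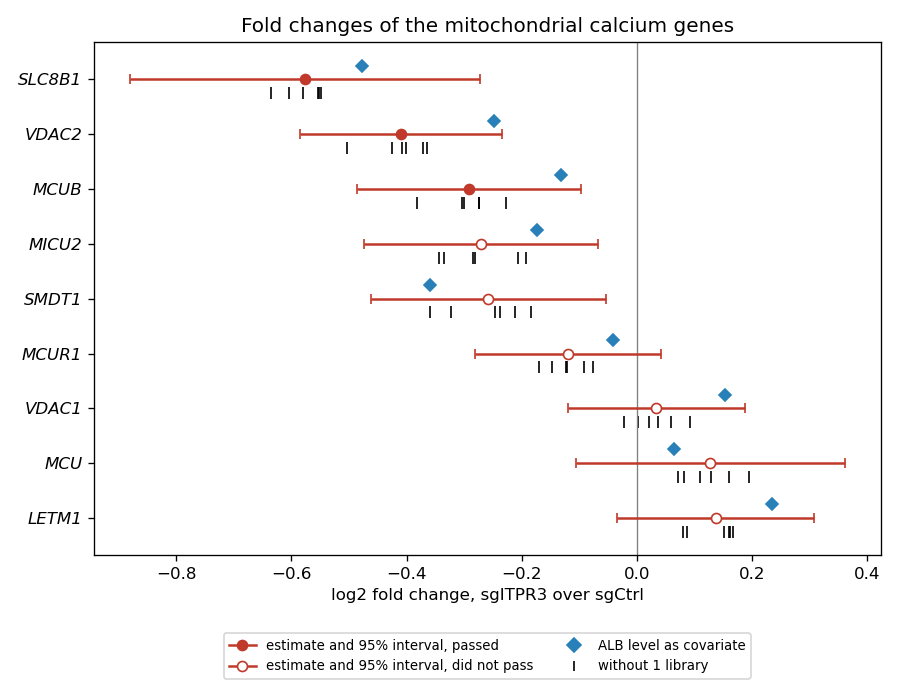
Log2 fold change of sgITPR3 over sgCtrl (horizontal axis) for each member, as the edgeR estimate with its 95% interval, the estimate with ALB level as a covariate (diamonds) and the estimates without 1 library (ticks). SLC8B1, VDAC2 and MCUB passed, from -0.58 to -0.29, and with ALB as a covariate their estimates were -0.48, -0.25 and -0.13.

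RNA levels of the uniporter genes were also compared as ratios of the counts of each partner to those of MCU, which do not depend on library scaling. Such ratios do not measure the make-up of the protein complex. MCUB to MCU was 1.93, 2.19 and 2.01 in sgITPR3, against 2.98, 2.28 and 2.96 in sgCtrl. MICU2 to MCU was 2.33, 2.57 and 2.03 in sgITPR3 and 3.18, 2.61 and 3.35 in sgCtrl. SMDT1 to MCU was 3.0, 3.06 and 2.84 in sgITPR3 and 4.55, 3.81 and 3.31 in sgCtrl. These 3 ratios were lower in every sgITPR3 library than in any sgCtrl library, though sgCtrl replicate 2 lay just above the sgITPR3 range for MCUB and MICU2. The differences of mean log2 ratios were -0.41 (SE 0.138), -0.40 (SE 0.147) and -0.38 (SE 0.137), each at an exact two-sided permutation p = 0.1 (0.12 when adjusted). They share MCU as the denominator and so are not independent. MCUR1 to MCU overlapped between groups, at 2.98, 3.64 and 2.97 in sgITPR3 and 4.01, 3.36 and 3.98 in sgCtrl (difference -0.25, SE 0.127, exact permutation p = 0.2).

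**Figure D3:**
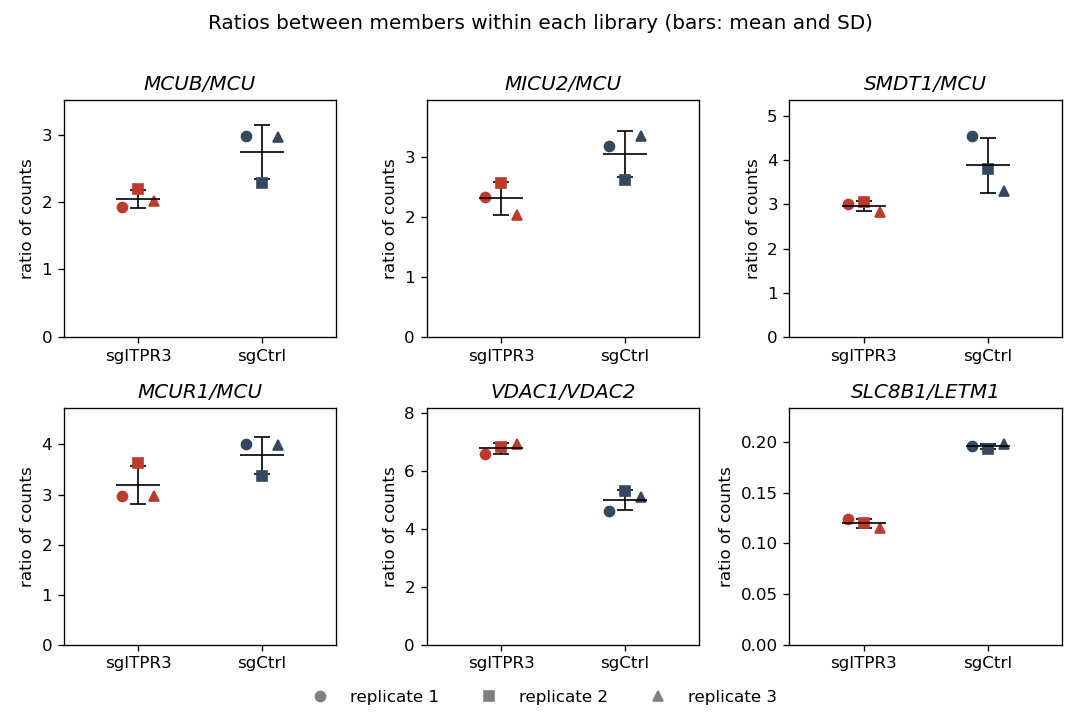
Ratios of counts between 6 pairs of members within each library (vertical axes, from 0), for sgITPR3 and sgCtrl, with symbols for replicates and bars for the mean and SD. SLC8B1/LETM1 is near 0.12 in sgITPR3 and near 0.196 in sgCtrl, VDAC1/VDAC2 is higher in sgITPR3, and MCUR1/MCU overlaps.

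For the members that fell, sgCtrl replicate 2 stood closest to sgITPR3 of its group. This library, the sgCtrl library with the most ALB, was the lowest of its group for 7 of the 9 members, the highest for MCU and in the middle for SMDT1. The share of all genes for which it was lowest was not counted. For LETM1 and VDAC1, being lowest put it farthest from sgITPR3. It was at 0.821 of the mean of the other sgCtrl libraries for VDAC2, at 0.826 for MCUB, at 0.860 for MICU2 and at 0.889 for SLC8B1. Without it the log2 fold changes were -0.50 for VDAC2, -0.38 for MCUB and -0.64 for SLC8B1, all past the threshold. Among the sgITPR3 libraries, replicate 1 had the most ALB but was the lowest of its group for VDAC1 only, and the highest for MCU, MCUB, MICU2 and SMDT1. Beyond the fit with ALB as a covariate, the part of liver RNA in these differences was not tested.

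The promoters of the paralog pairs and of SLC8B1 are shown because MCUB, VDAC2 and SLC8B1 were each called lower while MCU and VDAC1 did not pass. Whether promoter sequence bears on these levels was not tested. In chicken lymphocytes the calcium-responsive factor CREB has been described to act on the MCU promoter. Each window holds 250 bases before and 50 after the RefSeq start site nearest to the start of the gene in GENCODE (GRCh38.p14, read 5′ to 3′ on the gene's strand), and RefSeq windows were found for 8 of the 9 members, all but LETM1. Capitals mark the cAMP response element core TGACG and the GC box GGGCGG on either strand.
MCU, chr10:72691893-72692192, plus strand: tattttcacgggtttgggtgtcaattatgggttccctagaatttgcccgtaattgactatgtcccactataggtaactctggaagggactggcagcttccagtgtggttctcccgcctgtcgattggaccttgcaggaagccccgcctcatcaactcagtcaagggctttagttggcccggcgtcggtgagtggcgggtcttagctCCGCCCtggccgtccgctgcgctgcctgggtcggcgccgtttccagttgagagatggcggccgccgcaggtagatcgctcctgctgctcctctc
MCUB, chr4:109559996-109560295, plus strand: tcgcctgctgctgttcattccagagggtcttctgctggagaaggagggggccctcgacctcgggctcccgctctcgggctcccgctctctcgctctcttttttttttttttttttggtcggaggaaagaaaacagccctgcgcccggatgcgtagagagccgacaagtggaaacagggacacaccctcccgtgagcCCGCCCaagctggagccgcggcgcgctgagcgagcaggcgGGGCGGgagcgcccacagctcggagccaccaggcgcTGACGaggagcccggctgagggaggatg
VDAC1, chr5:134004926-134005225, minus strand: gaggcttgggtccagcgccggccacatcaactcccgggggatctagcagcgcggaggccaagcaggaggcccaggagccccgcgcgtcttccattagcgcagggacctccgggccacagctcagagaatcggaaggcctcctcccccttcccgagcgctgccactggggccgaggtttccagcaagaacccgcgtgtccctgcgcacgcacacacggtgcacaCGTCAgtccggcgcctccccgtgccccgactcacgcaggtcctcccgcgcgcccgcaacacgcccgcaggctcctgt
VDAC2, chr10:75209920-75210219, plus strand: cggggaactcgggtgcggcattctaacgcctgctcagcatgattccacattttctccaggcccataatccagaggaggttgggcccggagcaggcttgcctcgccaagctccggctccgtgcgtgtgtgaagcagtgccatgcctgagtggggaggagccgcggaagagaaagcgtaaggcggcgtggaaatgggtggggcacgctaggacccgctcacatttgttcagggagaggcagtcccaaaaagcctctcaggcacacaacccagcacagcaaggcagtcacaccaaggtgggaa
SLC8B1, chr12:113335060-113335359, minus strand: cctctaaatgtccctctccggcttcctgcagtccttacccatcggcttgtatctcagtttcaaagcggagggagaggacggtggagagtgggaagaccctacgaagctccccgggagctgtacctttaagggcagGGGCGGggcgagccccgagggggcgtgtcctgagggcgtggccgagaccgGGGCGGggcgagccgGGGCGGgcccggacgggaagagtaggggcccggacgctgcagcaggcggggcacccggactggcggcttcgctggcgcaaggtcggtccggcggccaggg

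The full cAMP response element TGACGTCA, which contains TGACG, was in 0 of the 8 windows and in 1.8% of all 35116 RefSeq windows of this length. TGACG was in 3 of the 8 (MCUB, VDAC1 and SMDT1), against 24.6% of all windows, and GGGCGG in 6 of the 8, against 45.0%. Of the genes that fell, MCUB had 1 TGACG and 2 GC boxes, SLC8B1 had 3 GC boxes and VDAC2 had neither motif. The NFAT core GGAAA was in 6 of the 8 windows and in 61.2% of all. CCAAT was in the window of MCU alone among the members, against 34.6% of all, and the E-box CACGTG was in 0 of the 8, against 7.3%. The window of SLC8B1 starts at a RefSeq site 24384 bases from the GENCODE start of the gene.

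The genes next to the members that fell did not move as a block. On either side of MCUB, SEC24B averaged 15.7 ± 1.84 CPM in sgITPR3 and 13.96 ± 0.0671 CPM in sgCtrl (edgeR adjusted p = 0.307), and PLA2G12A, a secreted phospholipase gene, rose to 20.5 ± 1.07 CPM in sgITPR3, against 16.8 ± 0.645 CPM in sgCtrl (log2 fold change 0.28, edgeR adjusted p = 0.0480). Beside VDAC2, SAMD8 did not pass (log2 fold change -0.13, edgeR adjusted p = 0.409), while COMTD1, which lies 2.52 kb away, fell to 20.4 ± 1.22 CPM in sgITPR3, against 25.2 ± 2.24 CPM in sgCtrl (log2 fold change -0.30, edgeR adjusted p = 0.0377). Beside SLC8B1, besides TPCN1, SDSL had a log2 fold change of 0.26 (edgeR adjusted p = 0.333).

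Other genes that carry or regulate mitochondrial calcium mostly did not pass the test. Of 20 listed, 17 could be tested, of which 3 fell, 1 rose and 13 did not pass (23.5% called, as over all genes; median log2 fold change -0.12). GHITM, encoding an inner membrane protein described as a calcium/proton antiporter, fell to 142 ± 4.50 CPM in sgITPR3, against 184 ± 17.7 CPM in sgCtrl (log2 fold change -0.37, edgeR adjusted p = 0.00285). AFG3L2, a subunit of the protease that removes unassembled EMRE, fell to 89.7 ± 5.08 CPM in sgITPR3, against 113 ± 7.79 CPM in sgCtrl, a call that ended when ALB level was a covariate (edgeR adjusted p = 0.0709). Its partner SPG7 did not pass, at 76.02 ± 2.93 CPM in sgITPR3 and 75.8 ± 5.21 CPM in sgCtrl. LETM2, a paralog of LETM1, fell to 3.75 ± 0.495 CPM in sgITPR3, against 6.15 ± 0.981 CPM in sgCtrl, a call that ended without sgCtrl replicate 1 (edgeR adjusted p = 0.0524) or sgITPR3 replicate 2 (0.0710). PHB1, encoding an inner membrane scaffold, rose to 165 ± 5.05 CPM in sgITPR3, against 134 ± 3.83 CPM in sgCtrl (log2 fold change 0.30, edgeR adjusted p = 0.00405). Named after its values were seen, VDAC3, the remaining outer membrane channel isoform, was at 145 ± 7.42 CPM in sgITPR3 and 157 ± 7.23 CPM in sgCtrl (log2 fold change -0.12, edgeR adjusted p = 0.222). MICU3 and the plasma membrane exchanger genes SLC8A1 and SLC8A3 had too few counts to test.

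Of 15 genes of the contacts between endoplasmic reticulum and mitochondria, 2 fell, 0 rose and 13 did not pass, a share lower of 13.3%, near the 11.9% over all genes. Their median log2 fold change was -0.030, and lay between -0.070 and -0.0088 without 1 library (farthest from 0 without sgITPR3 replicate 3, nearest without sgCtrl replicate 3). FIS1, an outer membrane adaptor of fission, fell to 64.5 ± 1.198 CPM in sgITPR3, against 77.8 ± 2.94 CPM in sgCtrl, and MFN2, a membrane fusion GTPase that tethers both organelles, fell to 61.8 ± 2.58 CPM in sgITPR3, against 74.6 ± 2.05 CPM in sgCtrl. The first call ended without sgITPR3 replicate 2 (edgeR adjusted p = 0.0544) and the other without sgITPR3 replicate 1 (0.0627). With ALB level as a covariate neither passed (adjusted p = 0.123 and 0.132 by edgeR).

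Among genes of the calcium-regulated dehydrogenases and carriers of the matrix, PDP1 stood out. It encodes the phosphatase that calcium stimulates to switch on pyruvate dehydrogenase, and rose 2.64-fold, with 119, 122 and 116 CPM in the sgITPR3 libraries, against 49.5, 42.0 and 43.6 CPM in the sgCtrl libraries (log2 fold change 1.40, SE 0.076, edgeR adjusted p = 1.90e-08). It passed in all 6 fits without 1 library and when ALB level was a covariate (log2 fold change 1.46). Of the other 17 genes, IDH3B fell (to 59.2 ± 5.06 CPM in sgITPR3, against 69.4 ± 2.44 CPM in sgCtrl) and 16 did not pass. Over the list 11.1% were called in either direction, against 23.5% over all genes. The list median was 0.00018, between -0.031 and 0.031 without 1 library. The IDH3B call (edgeR adjusted p = 0.0409) held in only 2 of the 6 fits without 1 library, those without sgCtrl replicate 2 and without sgITPR3 replicate 3, and ended when ALB level was a covariate (adjusted p = 0.287).

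Genes linked to the permeability transition had the lowest median of the lists examined, at -0.32, with 5 of 10 lower, 1 higher and 4 not passing, where 11.9% of all genes were called lower. With ALB level as a covariate this median was -0.16. PPIF, encoding cyclophilin D, the matrix protein that makes the pore more sensitive to calcium, had 63.8, 62.0 and 59.0 CPM in the sgITPR3 libraries, against 88.7, 77.9 and 87.6 CPM in the sgCtrl libraries (log2 fold change -0.46, SE 0.074, edgeR adjusted p = 4.56e-04). TSPO, an outer membrane cholesterol-binding protein, fell to 98.5 ± 7.18 CPM in sgITPR3, against 129 ± 5.73 CPM in sgCtrl. HK1, the hexokinase that docks on voltage-dependent anion channels, fell to 66.8 ± 4.24 CPM in sgITPR3, against 87.03 ± 2.85 CPM in sgCtrl. These 3 genes passed in all 6 fits without 1 library and with ALB as a covariate. SLC25A3, the phosphate carrier, fell to 248 ± 14.6 CPM in sgITPR3, against 295 ± 23.9 CPM in sgCtrl, but not without sgCtrl replicate 1, sgITPR3 replicate 1 or sgITPR3 replicate 2 (adjusted p of 0.0948, 0.122 and 0.0986 by edgeR) and not when ALB level was a covariate (log2 fold change -0.15, edgeR adjusted p = 0.298). Named after their values were seen, the nucleotide carrier gene SLC25A4 rose to 43.7 ± 2.87 CPM in sgITPR3, against 33.4 ± 6.63 CPM in sgCtrl, a call kept in 2 of the 6 fits (those without sgCtrl replicate 1 or sgITPR3 replicate 2). BAX, a death effector gene, was at 7.39 ± 1.17 CPM in sgITPR3 and 10.7 ± 2.63 CPM in sgCtrl with overlapping ranges. It passed narrowly (edgeR adjusted p = 0.0494), and among the 6 fits only without sgCtrl replicate 2. The estimate was -0.17 on the log2 scale once ALB level was a covariate (edgeR adjusted p = 0.680).

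Markers of mitochondrial mass were examined beside these. Of 18 genes, 4 fell, 0 rose and 14 did not pass (median log2 fold change -0.14). The share lower was 22.2%, against 11.9% lower and 23.5% called in either direction over all genes. CS, encoding citrate synthase, fell to 75.6 ± 3.72 CPM in sgITPR3, against 105 ± 10.4 CPM in sgCtrl (log2 fold change -0.47, edgeR adjusted p = 6.88e-04) and passed in all 6 fits without 1 library. TOMM20, SDHB and CYCS also fell, with log2 fold changes of -0.28, -0.30 and -0.25. The call of TOMM20 ended without sgITPR3 replicate 1 (edgeR adjusted p = 0.0557), that of SDHB in 4 of these 6 fits (all but those without sgCtrl replicate 2 or 3) and that of CYCS in 5 (all but the one without sgCtrl replicate 2). When ALB level was a covariate none of these 3 passed (adjusted p of 0.149, 0.167 and 0.421 by edgeR), the log2 fold change of CYCS was -0.12 and the list median was -0.056. Of 12 biogenesis genes, 3 fell, 0 rose and 9 did not pass (median -0.19). The share lower was 25%, against the same 11.9% lower and 23.5% in either direction over all genes. ESRRA, a nuclear receptor of respiratory genes, fell to 20.03 ± 0.833 CPM in sgITPR3, against 26.8 ± 2.04 CPM in sgCtrl. The coactivator gene PPRC1 fell to 22.3 ± 2.73 CPM in sgITPR3, against 30.5 ± 2.69 CPM in sgCtrl, and NRF1 to 6.66 ± 0.743 CPM in sgITPR3, against 9.19 ± 0.988 CPM in sgCtrl. The NRF1 call held in only 2 of the 6 fits, those without sgCtrl replicate 2 or sgITPR3 replicate 1. When ALB level was a covariate, ESRRA passed (edgeR adjusted p = 0.0478), while PPRC1 (0.107) and NRF1 (0.176) did not. Of the 13 mitochondrially encoded genes, MT-ND5 rose to 4649 ± 349 CPM in sgITPR3, against 3922 ± 209 CPM in sgCtrl (edgeR adjusted p = 0.0256), 0 fell and 12 did not pass. That is 7.69% called, against 23.5% over all genes. The MT-ND5 call ended without sgCtrl replicate 1, sgCtrl replicate 2 or sgITPR3 replicate 1 (adjusted p of 0.0634, 0.0551 and 0.151 by edgeR) and when ALB level was a covariate (0.0565). The median of these 13 genes was -0.089, but 0.0030 without sgCtrl replicate 1, -0.0079 without sgITPR3 replicate 3 and -0.15 without sgITPR3 replicate 1. Mitochondrially encoded counts were 19.6% to 21.2% of each sgITPR3 library and 20.1% to 21.3% of each sgCtrl library.

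**Figure D4:**
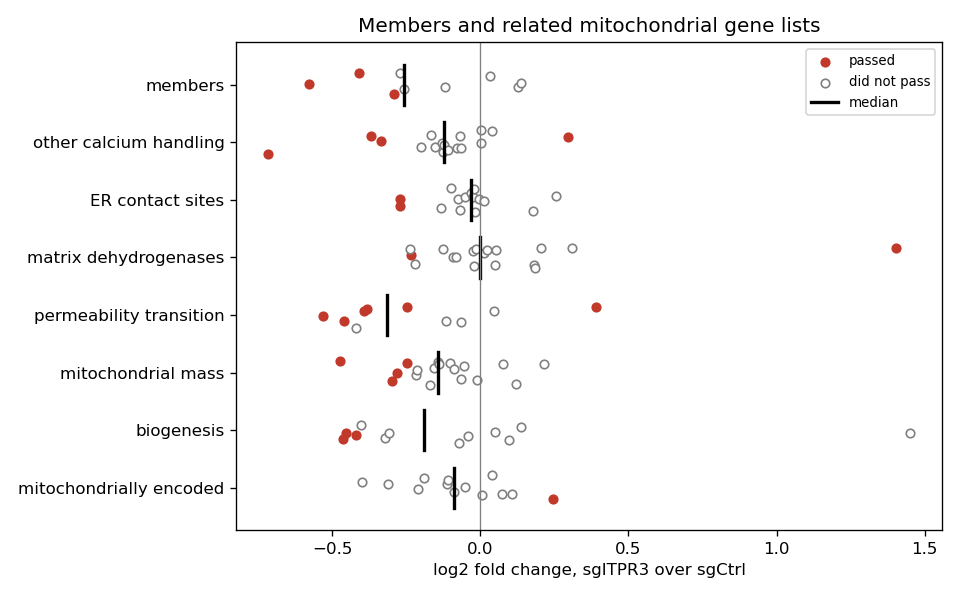
Log2 fold change of sgITPR3 over sgCtrl (horizontal axis) for the 9 members and the tested genes of 7 related lists, with filled points for genes that passed, open points for those that did not, and a line at each median. Medians run from -0.32 for permeability transition genes to 0.00018 for matrix dehydrogenase genes, and the isolated filled point near 1.40 is PDP1.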

How the data were processed

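Gene counts in 3 sgITPR3 and 3 sgCtrl libraries were used as the authors deposited them. The submitters' processing notes name STAR 2.6.0a, featureCounts 1.6.3, DESeq2 and the build GRCh38. They do not state the annotation release, the strand setting or how mouse and multiply aligned reads were handled. Positions came from GENCODE release 29. With R 4.3.3 and edgeR 4.0.16, filterByExpr (minimum count 10) kept 15804 of 58884 identifiers, and libraries were scaled by TMM. The quasi-likelihood test compared sgITPR3 with sgCtrl without covariates, with Benjamini-Hochberg adjustment across the tested genes and a threshold of 0.05. The SE is the absolute log2 fold change over the square root of F. The biological coefficient of variation was 9.53%. A single count was 0.0405 to 0.0538 CPM.

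Ratios of counts (pseudocount 0.5) were compared by exact permutation over libraries. Alternatives were RLE scaling, other filters, DESeq2 1.42.0, limma-voom (limma 3.58.1), a block for replicate number, omission of each library in turn, ALB level (log2 CPM) as a covariate, and leaving out mitochondrially encoded counts. Libraries of a group differed beyond sampling noise (chi-square per degree of freedom 5.51 to 10.6). The procedure was tested on simulated data. Members and gene lists were chosen with earlier results of these data known. Genes named are the members, ITPR3, up to 4 called genes of each list by smallest p, the tested neighbours of called members and the genes most like MCU, of which 1 is not reported here; others are said to be named after their values were seen, and SPG7, the untested list genes, the marker genes and the overlapping genes are given as context.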

Additional observations from a re-analysis of the deposited data

How the results depend on the processing

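VDAC2 and SLC8B1 were lower under every alternative run and passed in all of them except with ALB as a covariate, where their log2 fold changes were -0.25 and -0.48. Over all alternatives the edgeR, DESeq2 and limma adjusted p ran from 1.48e-05 to 0.0865 for VDAC2 and from 0.00604 to 0.121 for SLC8B1. With ALB as a covariate MCUB was at -0.13, no member passed (0 of 9), 1992 genes were called (1007 higher, 985 lower) and 11 of the 103 list genes were called, against 3717, 1835, 1882 and 22. ALB itself had a log2 fold change of 1.14 (edgeR adjusted p = 0.123), so this fit does not fully separate ALB level from group. Its SE was 0.194 for SLC8B1, 0.091 for VDAC2 and 0.108 for MCUB, against 0.142, 0.082 and 0.091 without the covariate. Without a low-count filter 5 members were called, with MICU2 at -0.28 and SMDT1 at -0.26. MICU2 was also called when mitochondrially encoded counts were left out (-0.28), and SMDT1 with the replicate number as a block (-0.26). Shared replicate numbers are not stated to pair libraries, so they were not taken to do so. Deviations from the group mean correlated at -0.050, 0.013 and 0.098 between same-numbered libraries, and at -0.12 to 0.11 between differently numbered ones. Apart from SMDT1, the block changed no member's call (4 members, 28 list genes and 3877 genes called). Leaving out each library gave 2 to 4 members called, log2 fold changes from -0.38 to -0.23 for MCUB, -0.34 to -0.19 for MICU2 and -0.36 to -0.18 for SMDT1, 14 to 28 list genes, and 2331 to 4261 genes over all (1135 to 2121 higher, 1196 to 2140 lower), fewest without sgITPR3 replicate 2. List genes were also fewest, at 14, without sgCtrl replicate 1. The causes of these shifts were not tested. VDAC1 alone among the members changed sign, without sgCtrl replicate 2, and never passed. The ratios kept their direction without any 1 library and with a pseudocount of 5, from -0.74 to -0.68 without 1 library for SLC8B1 to LETM1 and from 0.38 to 0.48 for VDAC1 to VDAC2. Depth limits SLC8B1 most, at 117 to 168 counts per library.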
